A study of Rattus norvegicus with 30 samples.

Results

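Cultured hepatocytes of male Sprague Dawley rats were exposed to 3000 µM or 300 µM phenobarbital for 48 h, and the transcripts of the wells at the higher dose were set against those at the lower dose. The comparison held 10 of the 30 arrays of the series, 5 wells at each dose with 1 array per well, and was chosen by dose and time in the sample titles. The cells were bought frozen, plated on collagen, covered with Matrigel and dosed on day 3 of culture, and all groups share this handling. The remaining arrays are 5 vehicle wells at 48 h and 5 wells each of vehicle, 300 µM and 3000 µM at 24 h. The titles name the vehicle water and another label names it culture medium. The labels call the wells independent cultures and number no animals, so that the spread given here is that between wells.

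All 31042 probe sets other than the 57 controls were members, and 16596 of them were tested because at least 1 of the 6 group means was at or above a log2 signal of 8.58, the median over every value in the table. The tested probe sets named 9831 genes, each of which was read in lists from its probe set with the highest mean. Signals are log2 values of the deposited intensities, a difference is the mean at 3000 µM minus the mean at 300 µM, and higher, lower, rose and fell stand for an adjusted p under 0.05 in limma. Each array had been scaled to the same mean signal. A change in total RNA per cell was therefore not measured, and in RNA from whole wells fewer cells of a type and less RNA per cell cannot be told apart.

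Phenobarbital is a sedative barbiturate and the classic inducer of drug metabolism in liver. It acts mainly through the constitutive androstane receptor CAR, encoded by Nr1i3, which it activates by way of the epidermal growth factor receptor and which then enters the nucleus. CAR binds enhancers of Cyp2b and other genes for cytochrome P450 enzymes, transferases and transporters, and shares many of its targets with the pregnane X receptor PXR, encoded by Nr1i2. The new P450 protein needs heme, whose synthesis is set by Alas1, and electrons from the reductase encoded by Por.

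The 5 arrays at 300 µM were closely alike, with r of 0.936 to 0.940 between pairs over all probe sets other than controls, and the 5 at 3000 µM spread more, with r of 0.917 to 0.938. The median SD of a tested probe set was 0.164 at 300 µM and 0.231 at 3000 µM. Array 4 at 3000 µM stood apart. Its spiked hybridization controls averaged a log2 signal of 14.57 against 13.02 to 13.23 on the other 4, and its ratio of the 3' to the 5' actin control was 1.91 on the log2 scale against 1.38 to 1.502. It read the 53 tested probe sets with a log2 signal over 16 higher than the other 4 arrays by a median of 0.51. At lower signals its median difference went both ways. It was 0.23 at signals of 15 to 16, -0.10 at 14 to 15 and -0.12 at 12 to 14. At 10 to 12 it was 0.011, and over the 7121 probe sets at 8 to 10 it was 0.15. Array 1 at 3000 µM lay nearest to the lower dose in most of the large falls. Of 215 probe sets at least 2-fold lower with both means at the level, array 1 was the closest to the 300 µM mean in 67.0% and array 5 the farthest in 54.9%. Of 105 at least 2-fold higher, array 1 was the closest in 37.1%.

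Over the 16596 probe sets, 5790 changed between the doses at 48 h, a share of 34.9%. Of these 2977 were higher at 3000 µM (17.9%) and 2813 lower (16.9%). Changes of at least 2-fold were fewer and mostly downward, with 176 probe sets higher (1.06%) and 361 lower (2.18%). The median size of a change was 1.38-fold. All 5 arrays of one dose lay beyond all 5 of the other in 3540 probe sets (21.3%), and 3425 of these also passed the test. With 1 probe set per gene, 2090 genes were higher (21.3%) and 1687 lower (17.2%), which is the background for every list below. The median difference over all genes was 0.037.

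Of 8 genes by which phenobarbital induction is usually read, 5 were lower at the higher dose and 3 did not pass the test. Cyp2b1 and Cyp2b2 are the main P450 genes induced by this drug and are read by a common probe set. Its log2 signals were 14.36, 14.53, 14.48, 14.56 and 14.72 on arrays 1 to 5 at 300 µM. At 3000 µM it was at 12.40, 10.78, 10.36, 10.55 and 10.65, and in the vehicle wells at 10.85, 11.18, 10.79, 10.83 and 10.47. The doses did not overlap, and 4 of the 5 arrays at 3000 µM lay among or below the vehicle arrays. Array 1 at 3000 µM was the exception, above every vehicle array. The signal fell 12-fold (-3.58 on the log2 scale, SE 0.227, adjusted p 5.04e-13, limma). Against vehicle the difference was 3.71 at 300 µM and 0.12 at 3000 µM (adjusted p 0.706). These comparisons share arrays with that of the doses. Without array 1 the fall was larger, -3.95.

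Cyp2c6v1, a further inducible P450, fell far less. Its arrays read 15.86, 15.90, 15.78, 15.92 and 15.88 at 300 µM and 15.47, 15.16, 15.29, 15.58 and 15.21 at 3000 µM, a fall of 1.44-fold (SE 0.0562 on the log2 scale, adjusted p 4.53e-09). The doses did not overlap, yet both lay above the vehicle arrays, by 2.25 and 1.72. Cyp3a2, a testosterone-hydroxylating P450, was at 11.01, 10.90, 11.27, 11.004 and 11.33 and 11.04, 10.63, 10.97, 11.06 and 10.82. Its doses overlapped and did not differ past the test (-0.20, SE 0.107, adjusted p 0.156), and it stood 1.32 and 1.12 above vehicle. Cyp3a23-3a1, a target of PXR, read 16.33, 16.34, 16.27, 16.31 and 16.18 at 300 µM and 16.21, 16.22, 16.24, 17.15 and 16.11 at 3000 µM. Its difference of 0.10 (adjusted p 0.533) went with array 4, which alone lay above all arrays at 300 µM, and the value was -0.089 without it (adjusted p 0.265).

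Alas1, the first enzyme of heme synthesis, read 13.76, 13.84, 13.82, 13.76 and 13.77 at 300 µM and 13.15, 12.66, 12.95, 12.91 and 12.36 at 3000 µM. It fell 1.98-fold (SE 0.106, adjusted p 6.44e-09) without overlap and was -0.36 from vehicle at the higher dose against 0.62 at the lower. Por, the P450 reductase gene, read 13.51, 13.38, 13.63, 13.38 and 13.48 and 12.95, 12.72, 12.93, 13.30 and 12.53, a fall of 1.5-fold (SE 0.0852, adjusted p 1.25e-06). Its arrays at 3000 µM straddled the vehicle mean of 13.01, and array 4 of them stood closest to the lower dose, without reaching it. Nr1i3, the gene of CAR itself, read 10.90, 11.27, 11.05, 11.26 and 11.21 at 300 µM and 10.69, 9.24, 10.28, 9.99 and 9.12 at 3000 µM. It fell 2.42-fold (-1.27, SE 0.172, adjusted p 4.58e-07), with a vehicle mean of 11.18. Its spread at 3000 µM was wide, from the highest on array 1 to the lowest on arrays 2 and 5. Nr1i2, the gene of PXR, overlapped at 11.74, 11.74, 11.55, 11.97 and 11.81 and 11.56, 11.95, 11.63, 11.80 and 11.40 (-0.097, adjusted p 0.405).

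**Figure D1:**
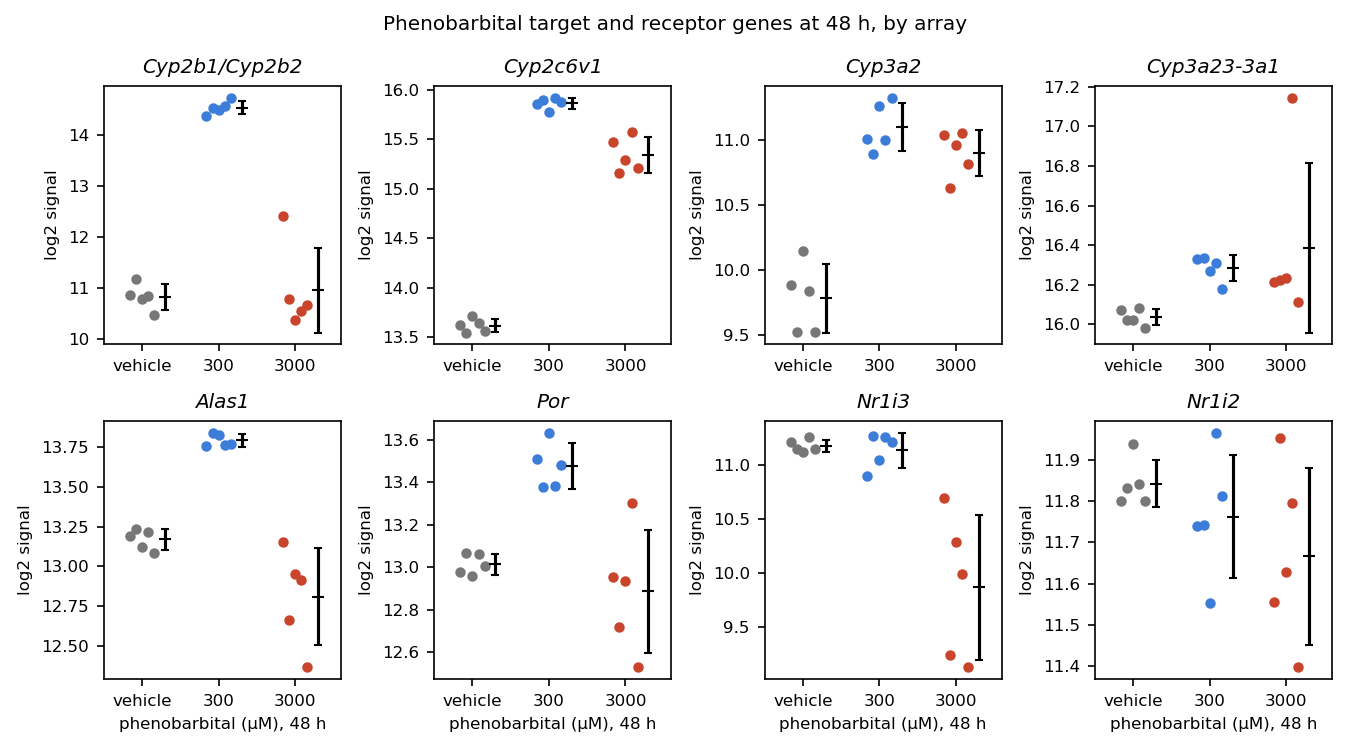
Log2 signal (vertical axis) of 8 genes of the phenobarbital response on each array of vehicle, 300 µM and 3000 µM wells at 48 h (horizontal axis); bars are mean and SD of 5 arrays. The shared Cyp2b1 and Cyp2b2 probe set averaged 14.53 at 300 µM and 10.95 at 3000 µM, near the vehicle mean of 10.82, while Cyp2c6v1 and Cyp3a2 stayed above vehicle at both doses.

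Most phase I genes of the CAR and PXR list moved the same way. Of 28 tested, 15 were lower (53.6%) and 2 higher (7.14%), with a median of -0.26. Probe sets shared by several genes enter no list, so that the larger fall of the common Cyp2b1 and Cyp2b2 probe set is not counted here. Among the members tested Akr1b8, an aldo-keto reductase, fell most (-1.72, SE 0.135), then the steroid-hydroxylating P450 genes Cyp2a1 (-1.42) and Cyp2c12 (-1.28). Cyp3a18 (0.44) and Cyp2c13 (0.23) were the members that rose, and Cyp2c13 lost its call in 11 of 21 settings (adjusted p up to 0.187). Akr1b8 read 13.11, 12.73, 12.79, 13.03 and 12.54 at 300 µM and 11.52, 11.39, 11.35, 10.90 and 10.44 at 3000 µM, with no overlap.

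The phase II conjugation genes, whose enzymes attach glucuronate, sulfate, glutathione or other groups, were also lower on balance. Of 39 tested, 18 fell (46.2%) and 7 rose (17.9%), with a median of -0.16. The acetyltransferase gene Nat8 (-1.56), the glycine methyltransferase gene Gnmt (-1.49) and the sulfotransferase gene Sult1c3 (-1.38) fell furthest, and Sult1c3 lost its call without array 2 or 3 at 3000 µM and in fits to fewer arrays (adjusted p up to 0.141). Both means of Sult1c3 lay below the level. Ugt2b10, a glucuronosyltransferase gene, rose 2.48-fold, and its arrays at 11.80, 11.94, 11.94, 12.08 and 11.92 and 13.20, 13.22, 13.29, 13.15 and 13.38 did not overlap. The glutathione transferase gene Gstk1 (1.30) and the sulfotransferase gene Sult1c2 (1.29) rose as well. Gstm1, the brightest member, was at 0.14 (adjusted p 0.407) and was -0.036 without array 4.

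Transporter genes moved in both directions. Of 22 tested, 7 rose (31.8%) and 5 fell (22.7%), with a median of -0.037. Those that rose were mostly export pumps. Abcb1a, the P-glycoprotein gene, read 11.03, 11.35, 11.23, 11.37 and 11.42 at 300 µM and 12.32, 12.58, 12.75, 12.58 and 12.74 at 3000 µM and rose 2.49-fold (SE 0.105, adjusted p 9.61e-12). The canalicular pump gene Abcc2 (0.74), the phospholipid exporter gene Abcb4 (0.68) and the efflux gene Abcc4 (0.62) also rose. Those that fell were mainly uptake carriers. Slc10a1, the sodium-dependent bile acid carrier gene, fell 2.29-fold (-1.20, SE 0.119), and Slco1b2, an organic anion carrier gene, fell by 0.79. Slco1a4 (0.73), also an uptake carrier, rose. With array 4 left out, 8 members were lower in place of 5.

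Among probe sets of a single named gene, the largest rises with both means at the level ranged from 1.31 to 2.65 on the log2 scale and held no P450 gene. Rsad2, an interferon-induced antiviral enzyme gene, read 10.28, 9.80, 10.49, 11.03 and 9.89 at 300 µM and 12.96, 13.005, 12.88, 12.61 and 13.27 at 3000 µM. It rose 6.27-fold (SE 0.19, adjusted p 2.16e-12). Every array at the higher dose exceeded every array at the lower, here and in the other genes of this paragraph, which was a condition for naming them. Tmsb15b2, of the thymosin beta family that binds actin monomers, read 9.20, 8.69, 9.19, 8.55 and 8.84 and 10.90, 10.96, 10.92, 10.20 and 11.29, a rise of 3.88-fold. Prrg4, a membrane protein gene, read 9.31, 9.70, 9.13, 8.97 and 9.23 and 10.87, 11.10, 10.83, 11.74 and 11.57, a rise of 3.88-fold. Tcp11l2 read 12.20, 12.18, 12.19, 12.17 and 12.24 and 13.97, 14.01, 14.10, 14.07 and 14.07, a rise of 3.61-fold (SE 0.0581). The wells of each dose were nearly equal in Tcp11l2 and spread widely at 300 µM in Rsad2, where array 4 was the highest.

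Ddit3, which encodes the stress transcription factor CHOP, read 12.04, 11.95, 11.96, 11.95 and 12.02 at 300 µM and 13.74, 13.85, 13.75, 13.45 and 14.22 at 3000 µM. It rose 3.52-fold (SE 0.0904, adjusted p 3.58e-16) and lay well above vehicle (2.12) at the higher dose alone (0.31 at 300 µM, adjusted p 0.0769). Sat2, of the spermidine acetyltransferase family, read 9.89, 9.48, 9.58, 9.71 and 9.01 and 11.30, 11.41, 11.23, 10.74 and 11.49 and rose 3.25-fold. Shc4, a receptor signalling adaptor gene, read 9.34, 9.02, 9.21, 9.05 and 9.24 and 10.94, 11.09, 10.95, 10.16 and 11.17 and rose 3.23-fold, with array 4 the lowest of the 5 at 3000 µM. Prcp, a lysosomal carboxypeptidase gene, read 9.73, 9.96, 9.80, 9.97 and 8.88 and 10.98, 11.20, 11.09, 11.39 and 11.45 and rose 2.93-fold, with array 5 the lowest of the 5 at 300 µM. Neither low array reached the other dose.

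The other rises of this rank ran from 1.31 to 1.51. Dnase2b encodes an acid DNase (1.51), Slc20a1 a sodium-phosphate transporter (1.36) and Rragd a Rag GTPase that links lysosomal amino acids to mTORC1 (1.35). Nabp1, for a single-strand DNA binding protein (1.33), and Dennd5a, for a Rab exchange factor (1.32), closed the group with Abcb1a and Ugt2b10. Rises from a mean below the level at 300 µM are imprecise. Thbd, the thrombomodulin gene, went from 7.12 ± 0.329 to 11.81 ± 0.185 (SD, n = 5 each), with adjusted p 8.2e-09 in limma, and its second probe set rose by 2.97. Igsf23 (3.68), Rgs19, for an attenuator of G protein signalling (2.23), and Elmo2, for an engulfment protein (2.07), also rose from below the level. So did Tnfrsf1b, a tumour necrosis factor receptor gene (1.91), Naaa, a lysosomal amidase gene (1.84), and the kinase gene Sgk2 (1.76).

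The largest falls in probe sets of a single named gene ran from -1.76 to -3.25, short of the fall of Cyp2b1 and Cyp2b2 in their common probe set. Again the 5 arrays of each dose were apart by the rule for naming. Acta1, the skeletal muscle actin gene, read 12.91, 12.68, 12.76, 12.42 and 12.04 at 300 µM and 10.22, 9.69, 9.39, 8.97 and 8.29 at 3000 µM and fell 9.51-fold (SE 0.256, adjusted p 2.06e-11). The probe set annotated Poteml2 read 13.56, 13.54, 13.62, 13.64 and 13.64 and 11.95, 10.43, 10.16, 9.81 and 9.68 and fell 9.15-fold. Steap4, a metalloreductase gene, read 13.74, 13.77, 13.56, 13.32 and 13.18 and 11.52, 10.66, 11.15, 10.44 and 10.14 and fell 6.65-fold. At 3000 µM array 1 was the highest and array 5 the lowest in all of these, while at 300 µM the wells of Poteml2 were nearly equal.

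Cyp7a1, whose enzyme starts the classic route from cholesterol to bile acids, read 11.31, 11.56, 11.52, 11.88 and 11.91 at 300 µM and 10.32, 9.34, 8.65, 8.64 and 8.26 at 3000 µM. It fell 6.05-fold (SE 0.246, adjusted p 9.46e-10). The doses lay on opposite sides of vehicle, 1.02 above it at 300 µM (adjusted p 0.024) and -1.57 at 3000 µM (adjusted p 5.29e-06). Prkcb, a protein kinase C gene, read 12.28, 12.16, 12.20, 11.86 and 12.18 and 10.10, 10.002, 10.14, 9.54 and 8.64 and fell 5.47-fold. Lox, the collagen cross-linking lysyl oxidase gene, read 14.31, 14.26, 14.14, 13.93 and 14.16 and 12.42, 11.59, 11.46, 11.69 and 11.44 and fell 5.42-fold. In Lox array 1 at 3000 µM stood above the other 4, as it did in the shared Cyp2b1 and Cyp2b2 probe set.

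Cyp8b1, the sterol hydroxylase gene of cholic acid synthesis, read 11.34, 11.17, 11.42, 11.21 and 11.19 and 9.68, 9.06, 8.61, 9.46 and 7.84 and fell 5.05-fold. Fer1l5, of the ferlin membrane proteins, read 11.18, 11.16, 11.34, 11.17 and 11.18 and 9.93, 9.25, 9.81, 9.07 and 7.48 and fell 4.28-fold. In both the arrays at 3000 µM were far more widely spread than those at 300 µM, with array 1 the highest and array 5 the lowest. The remaining falls of this rank ran from -1.99 to -1.76. They included Bhmt, for betaine-homocysteine methyltransferase, the fructose transporter gene Slc2a5 (-1.89) and the fatty acid desaturase gene Scd2 (-1.88). A dimmer probe set of Scd2 did not pass (-0.027). Synrg, for a clathrin adaptor partner (-1.87), the histidine-degrading enzyme gene Ftcd (-1.78), the annexin gene Anxa8 (-1.78) and Thrsp, a promoter of lipogenesis (-1.76), made up the rest.

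Among falls to a mean below the level, Clec14a dropped from 9.02 ± 0.29 to 3.76 ± 2.43 (SD, n = 5 each, limma adjusted p 8.37e-07). Clec14a is known as a lectin gene of endothelial cells. Tmem255b (-3.31), the GTPase gene Rem2 (-2.75) and Cyp17a1, a steroidogenic P450 gene (-2.64), followed. Entpd8, for a canalicular ectonucleotidase (-2.61), Duox2, for a peroxide-forming oxidase (-2.49), and the homeobox gene Meox2 (-2.45) were also among the 8 largest. Falls to below the level are imprecise in size.

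**Figure D2:**
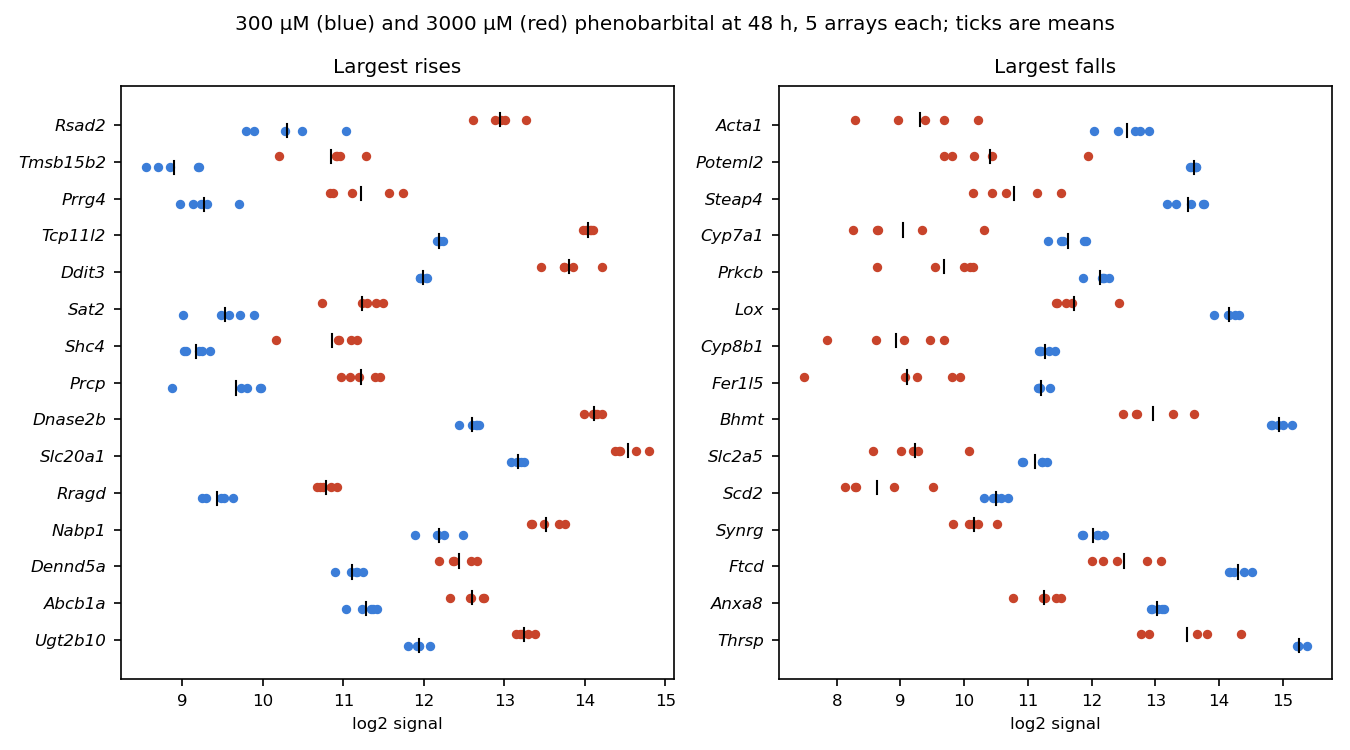
Log2 signal (horizontal axis) on each of 5 arrays at 300 µM and 5 at 3000 µM for the 15 largest rises (left) and 15 largest falls (right) in probe sets of a single named gene with both means at the level; short lines are means. The doses are apart in every gene, and the arrays at 3000 µM are widely spread among the falls, as in Fer1l5, from 7.48 to 9.93.

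The integrated stress response couples stress signals, through phosphorylation of the initiation factor eIF2alpha, to the transcription factor ATF4 and its targets for amino acid supply. Of 42 members tested, 23 rose (54.8%) and 9 fell (21.4%), with a median of 0.20. Ddit3 led the rises. After it, Atf3 rose 2.27-fold (1.18, SE 0.102), Sesn2, a brake on mTORC1, 2.18-fold (1.12), and Ppp1r15a, which restores translation, 2.01-fold (1.01). Atf4 itself rose by 0.29, Trib3, a pseudokinase target, by 0.65, and Nupr1, the brightest member, by 0.30. Genes of amino acid transport and synthesis also rose, among them Slc3a2 (0.88), Slc7a5 (0.71), Psph (0.62) and Asns (0.32). The members that fell were Ero1a, for the disulfide-forming oxidase of the endoplasmic reticulum (-1.08), Ddit4 (-1.04), Stc2 (-0.99) and the hormone gene Fgf21 (-0.97), with Gpt2, Cebpg, Vldlr, Shmt2 and Slc38a2. Slc38a2 lost its call in 15 of 21 settings (adjusted p up to 0.183), and a second probe set of Gpt2 (0.015) did not pass.

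Atf3 read 11.59, 11.75, 11.68, 11.57 and 11.62 at 300 µM and 12.62, 12.46, 12.83, 12.94 and 13.27 at 3000 µM. Ero1a read 13.04, 13.001, 13.05, 12.84 and 13.01 and 12.16, 11.79, 12.09, 12.17 and 11.31. Both pairs of doses were apart, in opposite directions. The aminoacyl-tRNA synthetases, which charge tRNAs and many of which are ATF4 targets, moved to one side. Of 22 tested, 15 rose (68.2%) and none fell, with a median of 0.27, and 11 to 17 rose over the alternative settings. Wars1 (0.74), Sars1 (0.72), the complex component gene Eef1e1 (0.40) and Aars1 (0.39) rose most, and Nars1, the brightest, rose by 0.27. A dimmer probe set of Wars1 did not pass (0.24). Wars1 read 11.06, 11.18, 10.56, 11.49 and 10.91 at 300 µM and 11.47, 11.65, 11.92, 11.98 and 11.87 at 3000 µM and these overlapped, since array 4 at 300 µM lay just above array 1 at 3000 µM. Most rises were small: 13 of the 15 were under 0.5 on the log2 scale.

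ATF4 and its C/EBP partners bind a composite element with the core TGATGNAA. This core, on either strand, was looked for in the 250 bases before the start site of each gene in the RefSeq promoter table (GRCr8). It was present in 6 of 34 promoters of tested integrated stress response members (17.6%), in 5 of 20 of synthetase genes (25%) and in 1.82% of the 7758 promoters of tested genes, against 3.21% of all 24206 promoters in the table. Among the integrated stress response members that rose, 4 of 18 promoters held it, and among the synthetase genes that rose 2 of 14, while 3 of the 6 synthetase promoters of genes that did not pass held it. The sequences below show the element, in capitals with 40 bases to each side or up to the start site, in 5 genes that rose and in Fgf21, which fell, each 5' to 3' in the gene's direction.
Trib3 (chr3:161275534-161275594, minus strand, 0.65): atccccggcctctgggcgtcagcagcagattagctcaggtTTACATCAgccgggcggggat
Aars1 (chr19:55908330-55908417, plus strand, 0.39): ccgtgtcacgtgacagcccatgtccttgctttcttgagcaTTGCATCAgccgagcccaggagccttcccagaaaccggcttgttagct
Chac1 (chr3:126795924-126796011, plus strand, 0.33): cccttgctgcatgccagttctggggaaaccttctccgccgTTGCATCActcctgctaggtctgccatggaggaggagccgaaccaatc
Nupr1 (chr1:190645909-190645996, minus strand, 0.30): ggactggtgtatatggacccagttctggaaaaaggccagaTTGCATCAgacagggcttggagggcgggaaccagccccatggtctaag
Slc7a1 (chr12:11664418-11664487, plus strand, 0.24): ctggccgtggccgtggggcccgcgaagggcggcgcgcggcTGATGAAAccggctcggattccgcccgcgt
Fgf21 (chr1:105221472-105221559, minus strand, -0.97): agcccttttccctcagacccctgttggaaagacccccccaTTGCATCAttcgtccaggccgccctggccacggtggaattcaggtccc
Counted from the start site, the first base of the element lay at -167 in Chac1, -143 in Fgf21, -112 in Aars1, -55 in Nupr1, -30 in Slc7a1 and -21 in Trib3. A match is a description of these letters and no evidence of binding.

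The unfolded protein response enlarges the folding capacity of the endoplasmic reticulum. Of 27 members tested, 11 rose (40.7%) and 4 fell (14.8%), with a median of 0.13. Sdf2l1, for a luminal chaperone partner, rose 2.24-fold (SE 0.0679), Atf6, a sensor of the response, by 0.76, and Selenos, of the degradation pathway, by 0.60. Hspa5, the main luminal chaperone gene, rose by 0.23 and lost its call without array 4 at 3000 µM and in 3 other settings. Uggt1, the folding checkpoint glucosyltransferase gene (-0.70), and Edem1, a degradation factor gene (-0.64), fell. Sdf2l1 read 11.56, 11.83, 11.67, 11.69 and 11.53 at 300 µM and 12.60, 12.93, 12.87, 12.85 and 12.85 at 3000 µM, apart by more than either dose's range.

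Heat shock and chaperone genes also rose more often than fell. Of 21 tested, 10 rose (47.6%) and 3 fell (14.3%), with a median of 0.17. The cochaperone genes Hsph1 (0.56) and Dnajb4 (0.52) and the regulator gene Hsf1 (0.49) rose most, and Hspe1, the brightest member, rose by 0.29. Hsf1 lost its call with array weights and without array 5 at 300 µM (limma adjusted p up to 0.0714). The small chaperone gene Cryab (-1.05) and the stress-inducible Hspa1a (-0.66) fell. Hspd1 (0.12) and Serpinh1 (-0.43) did not pass.

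The p53 targets, which answer DNA damage, were mixed, with 9 of 20 higher (45%) and 4 lower (20%), and a median of 0.17. Plk2, a kinase gene (0.94), and Mdm2, for the ligase that degrades p53 (0.85), rose, and Gadd45a, the brightest, rose by 0.52. Rprm, a cell cycle brake gene, was lower, but its means of 8.38 and 7.04 both lay below the level, where sizes are imprecise. Cdkn1a, the best known target, fell by 0.34 and lost its call without array 1, 2 or 5 at 3000 µM and in fits to fewer arrays (adjusted p up to 0.134). Nrf2 targets, which answer oxidative and electrophilic stress, fell more often than rose: 11 of 28 lower (39.3%) and 2 higher (7.14%), median -0.10. Besides Akr1b8, Me1, for malic enzyme (-0.73), and Gclc, for the limiting enzyme of glutathione synthesis (-0.46), fell, Abcc4 rose, and Nqo1 was at -0.15. Txn1, the brightest member, did not pass (0.031, adjusted p 0.744). The antioxidant element core TGACNNNGC was in 5 of 24 promoters of the list (20.8%). It was in 12.8% of the promoters of tested genes and in 10.2% of all 24206 promoters. All 5 were among the 22 promoters of members that fell or did not pass.

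Most genes of fatty acid oxidation fell. PPARalpha is the receptor that turns on fatty acid transport, oxidation and ketone formation in fasting liver. Of 40 targets and oxidation genes, 29 fell (72.5%) and 2 rose (5%), with a median of -0.44. The ketone enzyme gene Bdh1 fell 2.65-fold (SE 0.153), and its second probe set fell by 1.498 on the log2 scale. Cpt1a, which admits fatty acids to mitochondria, fell 2.41-fold and the fatty acid hydroxylase gene Cyp4a1 2.42-fold. The lipid droplet gene Plin5 fell 2.39-fold, but to a mean below the level, where sizes are imprecise. Over the alternative settings Plin5 ran from -1.48 to -1.03 on the log2 scale. Fabp1 (-1.16), Ehhadh (-1.15) and Hadh (-1.07) also fell, and Acot2 (0.36) and Hadhb (0.15) rose. Plin2, the brightest member, fell by 0.21 and lost its call without array 2 or array 5 at 3000 µM and in 2 other settings (adjusted p up to 0.0687).

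Cpt1a read 10.71, 10.95, 10.77, 11.08 and 10.62 at 300 µM and 9.81, 9.60, 9.65, 9.29 and 9.43 at 3000 µM. Cyp4a1 read 11.97, 12.13, 11.87, 12.14 and 12.16 and 10.88, 10.62, 10.82, 10.75 and 10.82. The doses were apart in both, but a second, dimmer probe set of Cpt1a did not pass (-0.040). Cyp4a1 was already below its vehicle mean of 12.91 at 300 µM (-0.85, adjusted p 1e-09).

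Lipogenic genes were lower on balance. Of 29 tested, 15 were lower (51.7%) and 3 higher (10.3%), with a median of -0.33. After Scd2 and Thrsp came Lpin1, a phosphatidate phosphatase gene (-1.43), and Mttp, which loads lipid onto apolipoprotein B (-0.98). Acly (-0.90) and Acaca (-0.80), for the first steps of fatty acid synthesis, and Scd, the brightest (-0.77), fell, while Fasn was at -0.21 (adjusted p 0.101) and fell by 0.46 in its second probe set (adjusted p 0.0176). The triglyceride-forming Dgat2 rose (0.47).

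Cholesterol synthesis genes moved the other way. SREBP2 raises them together when sterols in the endoplasmic reticulum run low. Of 22 tested, 11 rose (50%) and 3 fell (13.6%), with a median of 0.23. The largest rises were in genes of the following steps: Cyp51 (0.82) and Msmo1 (0.68) demethylate sterols, Sc5d (0.54) desaturates them and Acat2 (0.74) makes acetoacetyl-CoA. Cyp51 read 13.10, 13.30, 13.14, 13.32 and 13.28 at 300 µM and 14.09, 13.79, 14.02, 14.13 and 14.21 at 3000 µM, without overlap. Fdps, the brightest member, rose by 0.22. Dhcr7, for the last reductase of the pathway (-0.51), Hsd17b7 (-0.42) and Stard4 (-0.24) fell, and Sqle (0.071) and Srebf2 (0.039) did not pass. A second probe set of Hsd17b7 rose by 0.69, so that its direction depends on the probe set, and Stard4 lost its call in 11 of 21 settings (adjusted p up to 0.134). The probe sets of Sc5d disagreed, with one at 0.76 and another at -0.27, both past the test. The sterol element core TCACNCCAC was in none of the list's 18 promoters and in 0.889% of those of tested genes.

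The bile acid synthesis list had no rise. Of 16 tested, 11 fell (68.8%), with a median of -0.42, and 10 to 11 fell over the alternative settings. Below Cyp7a1 and Cyp8b1 stood Acox2, which shortens the side chain (-1.47), and Baat, which conjugates the acids (-1.04). Acox2 read 12.16, 12.01, 12.32, 11.98 and 12.09 at 300 µM and 10.98, 10.54, 10.73, 10.57 and 10.39 at 3000 µM. Baat read 13.25, 13.58, 13.45, 13.82 and 13.53 and 13.05, 12.26, 12.26, 12.41 and 12.47, again with array 1 nearest to the lower dose. Scp2, the brightest, fell by 0.37, and Cyp27a1 of the alternative route did not pass (0.036).

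Genes of glucose and glycogen metabolism mostly fell. Of 27 tested, 17 were lower (63%) and 1 higher (3.7%), with a median of -0.44. The glycogen synthase gene Gys2 fell 3.16-fold (SE 0.166), the alanine transaminase gene Gpt 2.62-fold, the pyruvate carboxylase gene Pc 2.54-fold and the glucose-phosphate transporter gene Slc37a4 2.41-fold. Gys2 read 12.47, 12.39, 12.69, 12.61 and 12.76 at 300 µM and 10.96, 11.05, 10.84, 11.48 and 10.31 at 3000 µM, apart throughout. Pck2, the mitochondrial form of the gluconeogenic carboxykinase, rose (0.25), and cytosolic Pck1 did not pass (0.037). Pck2 lost its call in 10 of 21 settings (adjusted p up to 0.139), and was at 0.18 without array 4. Ldha, the brightest member (-0.23), lost its call without array 5 at 3000 µM and in the fit to the compared arrays alone (adjusted p up to 0.0912).

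Among genes of amino acid breakdown and the urea cycle more fell than rose, with 23 of 49 tested down (46.9%), 9 up (18.4%) and a median of -0.21. Besides Bhmt and Gpt the largest falls were in Agxt, for glyoxylate transamination (-1.47), and Gldc, for glycine cleavage (-1.31). The urea cycle genes Otc (-0.71) and Arg1, the brightest (-0.44), fell, Asl rose (0.29) and Ass1 did not pass (0.12). Acmsd of tryptophan breakdown (1.21) and Cdo1 of cysteine breakdown (0.68) rose. Agxt read 12.26, 12.12, 12.26, 12.18 and 12.55 at 300 µM and 11.13, 10.92, 11.01, 10.29 and 10.67 at 3000 µM, without overlap.

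The liver makes most plasma proteins, and those of clotting were among the lists with most falls. The coagulation and fibrinolysis genes had 17 of 23 lower (73.9%), 3 higher (13%) and a median of -0.48. Fga fell 2.54-fold and the other fibrinogen chain genes Fgb (-0.66) and Fgg, the brightest (-0.52), with it. Klkb1, for prekallikrein (-1.18), and Serpinf2, for the plasmin inhibitor (-0.97), fell next. Fga read 15.55, 15.41, 15.48, 15.36 and 15.27 at 300 µM and 14.36, 14.18, 14.09, 13.92 and 13.78 at 3000 µM, and a second Fga probe set fell by 2.15. Thbd, Serpind1 (0.60) and the pathway inhibitor gene Tfpi (0.41), all brakes on clotting, were the members that rose, and Tfpi lost its call in 5 of 21 settings (adjusted p up to 0.115).

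Of 35 acute phase and complement genes, 23 fell (65.7%) and none rose, with the lowest median of any list (-0.55). The complement gene C5 fell 3.2-fold (SE 0.135), the protease inhibitor gene Serpina3n 2.81-fold, the iron hormone gene Hamp 2.78-fold and the inhibitor gene A2m 2.11-fold. C5 read 11.08, 10.99, 11.11, 10.84 and 11.22 at 300 µM and 9.97, 9.37, 9.30, 8.90 and 9.31 at 3000 µM. Hamp read 11.24, 11.23, 11.09, 10.74 and 10.56 and 9.69, 9.54, 9.58, 9.51 and 9.16. Both were apart, and the doses differed less from each other in C3 (-0.50) and Crp (-0.16). Crp lost its call in 12 of 21 settings (adjusted p up to 0.19). Hp, the brightest member, did not pass (0.072, adjusted p 0.658) and was -0.066 without array 4.

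In the list of other secreted proteins 18 of 37 fell (48.6%) and 3 rose (8.11%), with a median of -0.15. Lcat, for the plasma cholesterol esterifying enzyme (-1.17), Igf1, the growth factor gene (-1.07), Apob (-0.97) and Igfbp4 (-0.87) fell most, and the other Igf1 probe sets stood at -1.57 and -1.56. A dimmer probe set of Apob did not pass (0.042). Igf1 read 15.10, 15.02, 15.03, 14.998 and 15.16 at 300 µM and 14.30, 13.96, 14.14, 13.59 and 13.98 at 3000 µM. Among the most abundant members, Apoa1 (0.051), Apoc3 (0.18) and Ttr (0.10) did not pass, and Gc, the brightest, was at 0.0021 while its second probe set fell by 0.46. Alb was at 0.38 (adjusted p 0.0491), a call lost in 12 of 21 settings, one of them without array 4 (0.16), which read Alb at 17.51 against 16.61 at most on the other 4 arrays.

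Transcription factors that define hepatocytes fell in part. Of 26 tested, 14 were lower (53.8%) and 5 higher (19.2%), with a median of -0.27. After Nr1i3 came the pioneer factor genes Foxa3 (-1.03) and Foxa1 (-0.90) and the factor gene Onecut1 (-0.89). Foxa1 read 9.61, 9.89, 9.31, 9.71 and 9.94 at 300 µM and 9.24, 9.09, 8.51, 8.65 and 8.44 at 3000 µM. Foxa2 (0.21) and the inducible Cebpd (0.88) rose, and Xbp1, the brightest, fell by 0.22. Foxa2 lost its call in 10 of 21 settings (adjusted p up to 0.0948). The probe set read for Hnf4a, which has the highest mean, fell (-0.51), but 2 dimmer ones rose by 0.46 and 0.61, so that its direction depends on the probe set. Among nuclear receptors and cofactors 8 of 27 fell (29.6%) and 3 rose (11.1%), with a median of -0.024. The bile acid regulator gene Nr5a2 (-0.68) and the glucocorticoid receptor gene Nr3c1 (-0.64) fell, and the retinoic acid receptor gene Rarb (0.74) and Esrra (0.69) rose.

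Growth hormone regulated and sex-biased genes were lower in 8 and higher in 3 of 17 tested (median -0.39), with Bcl6, a male-biased repressor gene (-1.17), and Hsd3b5, a male-biased steroid enzyme gene (-1.11), next to Cyp2c12 and Igf1 among the falls. Cyp2c11, the male-specific P450 gene and the brightest member, fell by 0.42. Of 18 genes typical of the portal side of the lobule, 8 fell and 3 rose (median -0.13). The lipid droplet gene Hsd17b13 (-1.11), the gluconeogenic gene Fbp1 (-0.85) and Cyp2f4 (-0.72) fell, and Pigr, the brightest, did not pass (-0.20). Pericentral genes had 3 of 14 lower and 1 higher (median -0.082), shares of 21.4% and 7.14%. Besides Cyp7a1 the falls were Cyp1a2 (-0.57) and Lect2 (-0.25), Rgn rose (0.97), and Glul did not pass (0.039), though a dimmer probe set of it rose by 0.20. Of 16 clock genes 3 were higher (18.8%) and 2 lower (12.5%), shares near those of all genes (median -0.054). Npas2 (-1.07) and Bhlhe40 (-0.28) fell and Clock (0.42) rose, and Bhlhe40 lost its call in 7 of 21 settings (adjusted p up to 0.11). Csnk1d rose in the probe set with the highest mean (0.29), and another of its probe sets fell by 0.34. The heme and iron list had 7 of 24 lower and 1 higher (median -0.12), with Aco1 (-0.54) beside Hamp and Alas1. Slc11a2, an iron carrier gene, fell by 0.40 in the probe set read and rose by 0.71 in another.

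Interferon response genes rose in a subset. Of 28 tested, 9 were higher (32.1%) and 2 lower (7.14%), with a median of -0.021. Besides Rsad2 the largest rises were in the peptide transporter gene Tap1 (1.08) and the immunoproteasome genes Psmb8 (1.001) and Psmb9 (0.86), with Tap2 (0.55) and Psmb10 (0.40). Tap1 read 10.21, 9.96, 10.26, 9.81 and 9.69 at 300 µM and 11.10, 10.64, 10.89, 11.33 and 11.37 at 3000 µM. The usual markers of an interferon response, Isg15 (-0.16), Ifit1 (-0.066), Ifit3 (-0.25) and Mx2 (-0.092), did not pass, and Irf7 fell (-0.52). B2m, the brightest member, did not pass (0.065), and its second probe set fell by 0.46. The cytokine and NF-kB list had 6 of 22 higher (27.3%) and 4 lower (18.2%), shares near those of all genes. After Tnfrsf1b, Cxcl11 (0.68) rose, Csf1 (-0.73) fell, Sod2, the brightest, fell by 0.20, and Cxcl12 (-0.63) lost its call in 8 of 20 settings (adjusted p up to 0.0929). Dimmer probe sets of Csf1, at 0.44 and 0.22, did not pass.

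Of the 45 cell cycle genes listed, 14 lay below the level in all groups. Of 29 tested, 10 rose (34.5%) and 2 fell (6.9%), with a median of 0.25. Stmn1, a tubulin-binding protein gene, rose 2.26-fold, and the replication helicase genes Mcm6 (1.11) and Mcm4 (1.01) and the replication clamp gene Pcna, the brightest (0.29), rose. The cyclin gene Ccne2 fell (-1.03), and the mitotic genes Ccnb1 (0.23) and Birc5 (0.14) did not pass. Mcm6 read 8.26, 7.78, 8.002, 8.09 and 7.51 at 300 µM and 8.91, 9.07, 9.28, 9.17 and 8.77 at 3000 µM. At 300 µM the means of Mcm6 (7.93) and Mcm4 (8.04) lay below the level, as did that of Ccne2 at 3000 µM. The sizes of these changes are imprecise. The cell cycle element core TTTGAA was in 4 of 22 promoters of the list (18.2%). It was in 10.03% of the promoters of tested genes and in 16.1% of all 24206 promoters. Among members that rose, 1 of 7 promoters held it, and among the others 3 of 15.

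In the cytoskeleton, matrix and dedifferentiation list 10 of 40 were higher (25%) and 11 lower (27.5%). Acta1, Anxa1 (-1.11) and the mesenchymal filament gene Vim (-0.95) fell, and the tubulin gene Tubb5 rose (0.89, and 1.29 in its second probe set). Krt8, the brightest, did not pass (0.08). Proteasome genes had 14 of 37 higher (37.8%) and 3 lower (8.11%), led by Psmd2 (0.53), Psmd11 (0.44, with 0.047 in a probe set that did not pass), Psma7 (0.36) and Psmd9 (0.33). A dimmer probe set of Psmd9 was at -0.63 and did not pass. Psmb4, the brightest (0.14), lost its call in 8 of 21 settings (adjusted p up to 0.0888). Ribosomal protein genes had 5 of 39 higher (12.8%), below the share of all genes, and none lower. Rpl35a (0.21), Rpl23 (0.19), Rpl14 (0.18) and Rpl6 (0.15) rose most, and Rps29, the brightest, did not pass (0.11). Rpl6 was at 0.10 without array 4 (adjusted p 0.132) and lost its call in 11 of 21 settings (adjusted p up to 0.132), and Rpl23 lost its call in 10 of 21 settings (adjusted p up to 0.124). Respiratory chain genes had 13 of 52 lower (25%) and 1 higher (1.92%), with small differences in Sdha (-0.24), Cox8a (-0.23), Ndufa2 (-0.19) and Ndufc2 (-0.19). Ndufa2 lost its call in 13 of 21 settings (adjusted p up to 0.221), and was at -0.098 without array 4. Over the settings 2 to 15 respiratory chain genes were lower, and 6 without array 4. For ribosomal protein genes 2 to 15 were higher.

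**Figure D3:**
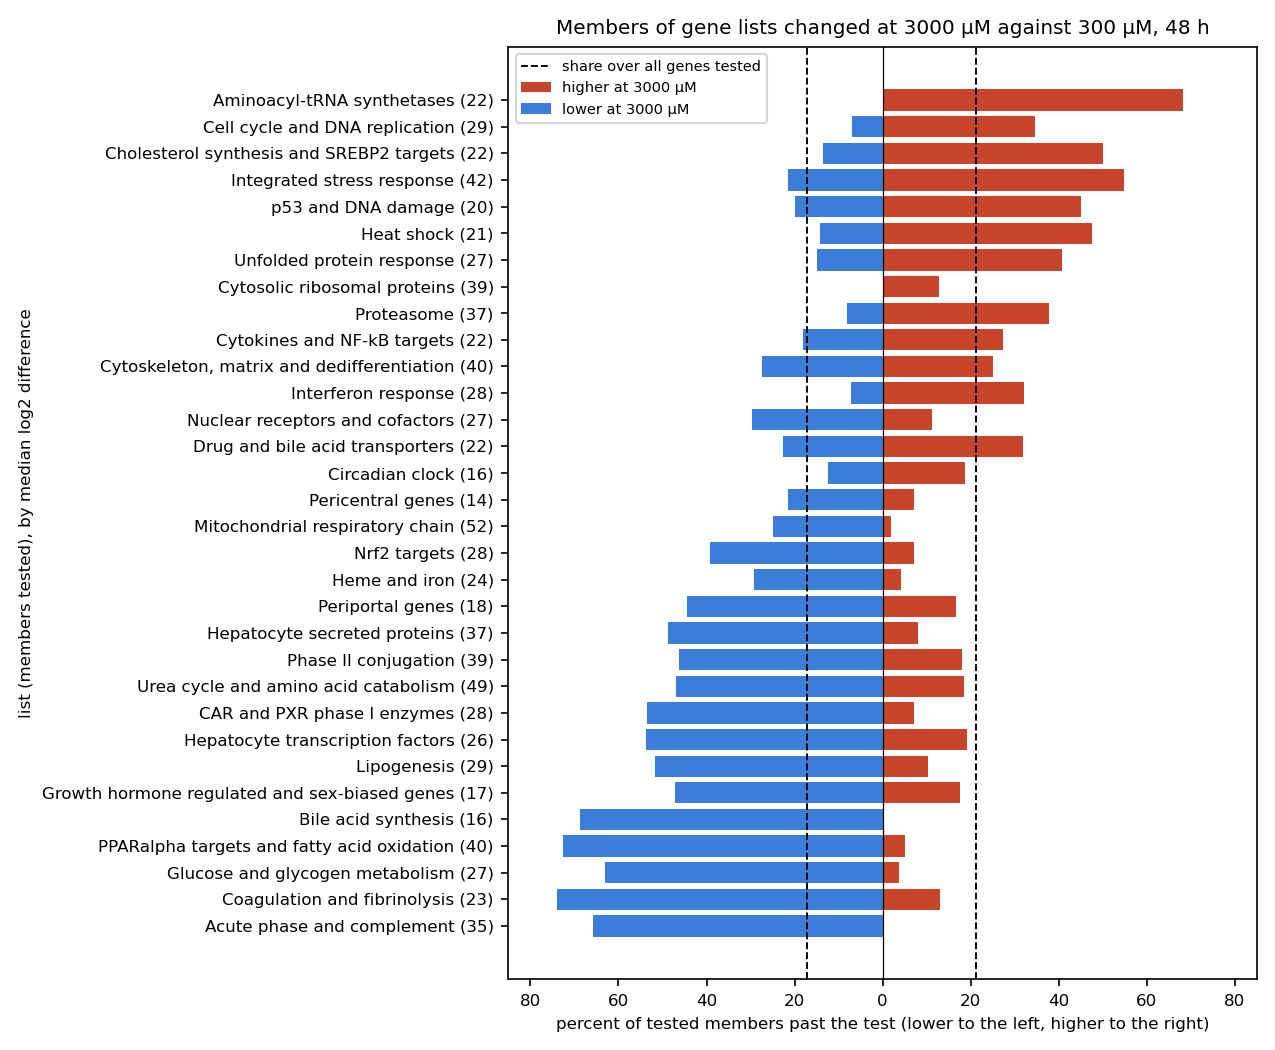
Share of tested members (horizontal axis, percent) that were higher (red, to the right) or lower (blue, to the left) at 3000 µM than at 300 µM at 48 h in 32 gene lists, ordered by median difference; dashed lines mark the share over all 9831 genes. Aminoacyl-tRNA synthetase genes were higher in 68.2%, and coagulation genes lower in 73.9%.

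**Figure D4:**
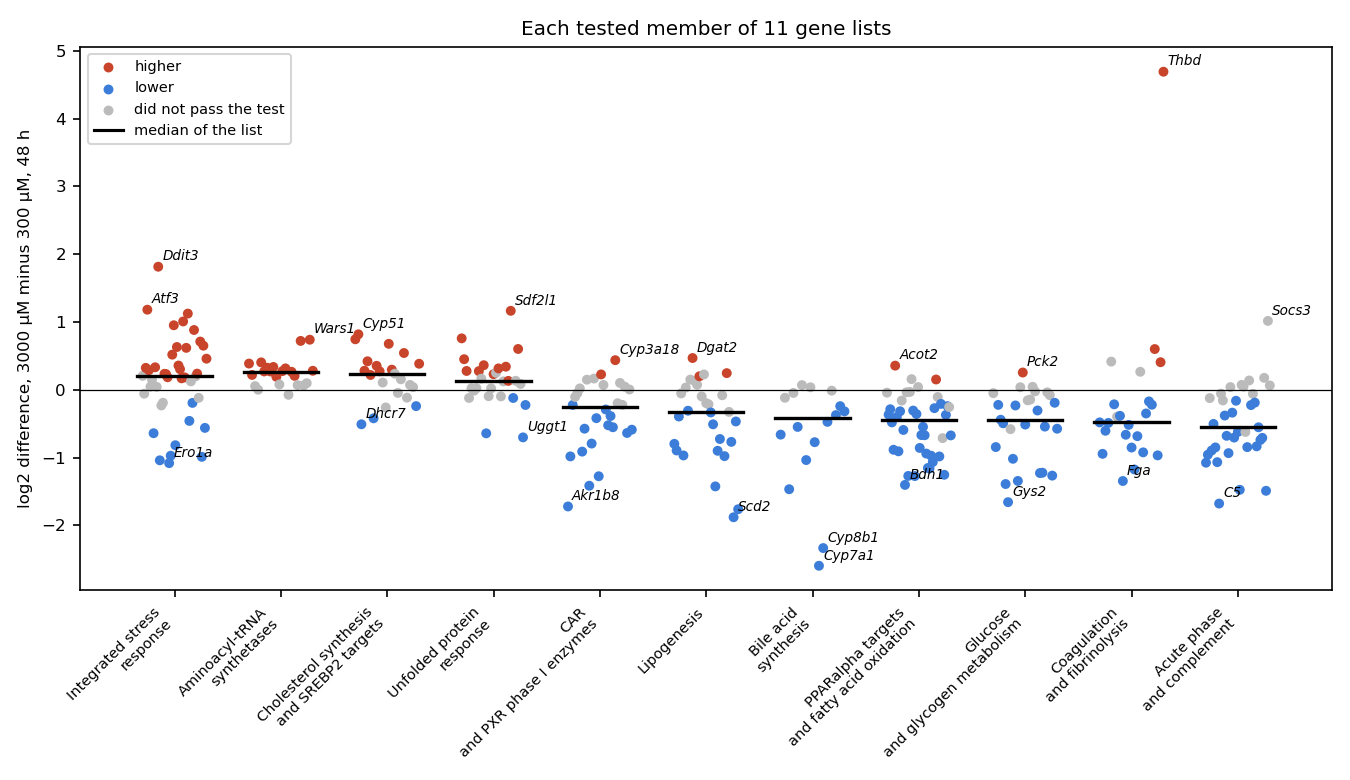
Log2 difference between 3000 µM and 300 µM at 48 h (vertical axis) of each tested member of 11 lists; red and blue points passed the test, grey points did not, and black lines are medians. The medians run from 0.27 for the aminoacyl-tRNA synthetases to -0.55 for acute phase and complement genes.

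The culture read as hepatocytes at both doses. Of 9 hepatocyte markers with a probe set, none was below the level. Their summed signal was 455787 to 534003 on the arrays at 300 µM and 458920 to 844571 at 3000 µM, the top value on array 4. Of the 9, 1 was higher and 2 were lower. Alb rose, but not without array 4. Hnf4a fell from 12.79 to 12.28 in the probe set read, and Cps1 from 15.86 to 15.63. A second Cps1 probe set fell by 0.83. Macrophage markers summed to 21194 to 23264 and 22681 to 25656, with Cd163, Ptprc, Adgre1 and C1qa below the level at both doses. Most of the sum came from Cd14 (10959 and 11263) and Lyz2 (8233 and 8777). Csf1r, Clec4f and Aif1 lay near the level. Of 7 tested, Cd68 alone rose (1.09). Cd68 encodes a lysosomal membrane protein. Stellate cell and fibroblast markers summed to 4009 to 4983 at 300 µM and 3455 to 4146 at 3000 µM. Rgs5 (-1.21) and Col3a1 (-0.40) fell, 6 of 11 were below the level, Lrat, Pdgfrb and Dcn among them, and Acta2, the brightest, did not pass (-0.063). Endothelial markers summed to 2110 to 2864 and 1655 to 2846, with 5 of 8 below the level, among them Pecam1, Stab2 and Lyve1, and none of the 3 tested changed (Egfl7, the brightest, -0.14). The fall of Clec14a, Rgs5 and Col3a1 was thus seen where other markers of those cells were near or below the level, and the part of other cell types in it was not tested. Cholangiocyte markers summed to 10897 to 12102 and 10522 to 11887, nearly all from Epcam (-0.00045), with Krt19 and Krt7 below the level. Of lymphocyte markers Ms4a1 alone was tested (0.31, adjusted p 0.479), the other 7 with a probe set lying below the level.

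The same doses had been compared in other wells at 24 h, where 4336 probe sets differed (26.1%). Of the 48 h calls 57.3%, and of the 24 h calls 76.5%, were called at both times in the same direction (3318 probe sets), and 4 were called in opposite directions. Across all 16596 probe sets, which are not independent and share the array design, the differences at both times had r of 0.739. Of 537 probe sets changed at least 2-fold at 48 h, 402 (74.9%) were called in the same direction at 24 h. The shared Cyp2b1 and Cyp2b2 probe set stood at -3.43 at 24 h and -3.58 at 48 h, Cyp7a1 at -3.09 and -2.60, and Nr1i3 at -1.31 and -1.27. None of these shifts between times passed the test of the difference (adjusted p 0.902, 0.629 and 0.974). By list, 24 of 42 integrated stress response members rose and 6 fell at 24 h, 30 of 40 PPARalpha targets fell, and 12 of 22 cholesterol genes rose. Other lists had fewer calls at 24 h. Of 37 proteasome genes 9 rose, against 14 at 48 h, and of 28 CAR and PXR phase I genes 10 fell, against 15. The share of all genes called in each direction at 24 h is not given here, so these counts are a description.

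The test of the difference itself found 124 probe sets (0.747%), 37 in which the value at 3000 µM minus that at 300 µM was higher at 48 h than at 24 h and 87 in which it was lower. In 112 of them the doses lay farther apart at 48 h. The count was unstable, 36 with array medians centred and 301 without array 1 at 3000 µM, 48 h. Among genes, Acta1 went from -1.69 at 24 h to -3.25 at 48 h (difference -1.56, SE 0.362, adjusted p 0.0332) and Steap4 from -1.32 to -2.73. Rsad2 went from 1.255 to 2.65 and Akr1b8 from -0.79 to -1.72. In these the direction was the same at both times. The neuropeptide gene Npy (-0.40 and -1.64), Hamp (-0.34 and -1.48), the membrane protein gene Lypd8 (-0.13 and -1.18) and the ubiquitin ligase adaptor gene Spsb4 (0.19 and -0.87) stood closer to 0 at 24 h and fell at 48 h. Sfn, a p53 target also called stratifin, was at -0.069 and rose by 0.93 at 48 h. Adora2b, an adenosine receptor gene, was at 0.66 at 24 h and -0.39 at 48 h, where it did not pass (adjusted p 0.0529). In the acute phase and complement list 7 of 35 members passed this test, Serpina3n, Hamp and A2m among them, against 0.747% of probe sets.

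**Figure D5:**
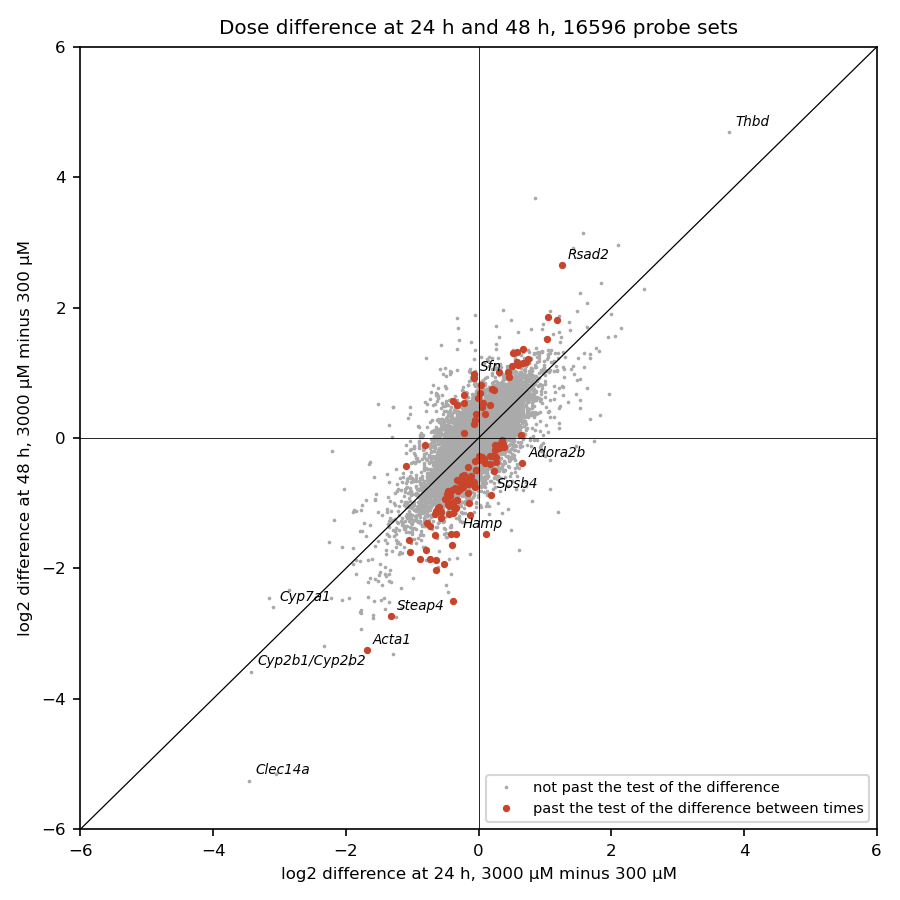
Log2 difference between 3000 µM and 300 µM at 24 h (horizontal axis) and 48 h (vertical axis) for 16596 probe sets; red points are the 124 past the test of the difference between times, and the diagonal marks equal values. Most red points lie farther from 0 at 48 h, as for Acta1 (-1.69 and -3.25).

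Set against the vehicle wells of 48 h, which share arrays with the comparison of doses, 39.4% of probe sets changed at 3000 µM and 1.54% at 300 µM. In some genes the lower dose lay near vehicle and the higher dose apart, as Acta1, which stood at -0.15 and -3.40 from vehicle, Steap4 at 0.054 and -2.68, and Rsad2 at -0.19 and 2.46. In others the lower dose had moved too, upward in the shared Cyp2b1 and Cyp2b2 probe set, Cyp2c6v1, Cyp3a2, Alas1, Por and Cyp7a1. Acox2 stood 0.92 above vehicle at 300 µM and -0.54 at 3000 µM. Synrg was at -0.58 (adjusted p 4.97e-05) and -2.45, and Cyp4a1 at -0.85 and -2.13.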

How the data were processed

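RNA of cultured rat hepatocytes was measured on 1-colour Affymetrix arrays, 1 per well. The authors deposited linear intensity values per probe set, made with MAS5 per the submitters' processing notes; array scaling was checked on the values, and further settings are not given in the sources used here. Log2 was taken without a constant, since all values were above 0. Probe sets were kept where at least 1 of the 6 group means was at or above the median over every value. All 30 arrays were fitted by group with limma 3.58.1 in R 4.3.3 (trended, robust eBayes, Benjamini-Hochberg adjustment over 16596 probe sets), first tested on simulated data. Contrasts were 3000 µM minus 300 µM at 48 h and at 24 h, their difference, and each dose minus vehicle at 48 h. Gene names came from the platform annotation, updated through RefSeq (GRCr8); of the tested probe sets 12971 had 1 symbol, 331 several and 3294 none. Each run of 6 neighbouring running numbers held 1 well of each group. The labels state no pairing, and the main fit took none.

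Genes were named by rule: the 15 largest rises and 15 largest falls with both means at the level and arrays apart, in probe sets of 1 named gene, the 8 largest each way from or to below the level, 8 phenobarbital genes, the 10 largest differences between times past that test, and in each list the 4 largest changes and the brightest member. Not every gene that the rule names is reported here, nor is every further probe set of a named gene. Other members were named after their values were seen, to show the range of a list. The members, the 32 pathway lists and the 6 marker lists were chosen with earlier results of these data known. The number of arrays limits precision. The alternatives were quantile normalization, centred medians, no or a stricter filter, an added constant of 16, fits to fewer arrays, no trend or robust estimation, array weights, the running number as a block, and leaving out each array.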

Additional observations from a re-analysis of the deposited data

Results flagged for a closer look

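In 50 of 572 sets of 5 arrays (1 named gene at 1 dose, 48 h), a single array lay far from the other 4 by Dixon's criterion, and chance gives about 1 such set in 20. Array 4 at 3000 µM accounted for 28 of them. Named genes include the brightest members of lists and are no random draw to set against 1 in 20. On the tested probe sets with a log2 signal over 16, this array read higher than the other 4 by a median of 0.51. Its median differences at lower signals were smaller and of either sign. It was the highest in 22 genes on the log2 scale, with Tmem255b at 7.10, Hp at 16.99, Sqstm1 at 16.34, Cyp3a23-3a1 at 17.15, Bhlhe40 at 12.10, Krt8 at 16.89, Rpl6 at 15.98, Rps29 at 16.96, Abcc2 at 16.17, Alb at 17.51, Apoc3 at 17.36, Gc at 16.94, B2m at 16.84, Ctsl at 17.08, Txn1 at 16.29, Plin2 at 15.67, Gstm1 at 17.30, Psmd2 at 14.28, Apoa1 at 16.51, Ass1 at 16.08, Cyp27a1 at 15.12 and Ttr at 16.62. It was the lowest in 6 genes, with Shc4 at 10.16, Psmb8 at 12.48, Psmb9 at 13.13, Ndufc2 at 14.17, Lect2 at 14.63 and Psmb10 at 11.49. The same array stood apart in the spiked hybridization controls, at 14.57 with the next array at 13.23, and in the 3' to 5' actin ratio, at 1.91 with the next at 1.502. The part of the array itself in these gene values was not tested.

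Array 1 at 3000 µM was the highest of its group for Lox at 12.42, Baat at 13.05, Acly at 14.28 and the shared Cyp2b1 and Cyp2b2 probe set at 12.40, in genes that were lower at the higher dose, and the lowest for Sdf2l1 at 12.60, which was higher. It thus lay nearer to the lower dose in each of them. Array 3 at 3000 µM was the lowest for Tap2 at 9.67.

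Among the arrays at 300 µM, array 1 was the highest for Gpt2 at 11.71. Array 3 was the highest for Fer1l5 at 11.34, Atp6v1c1 at 12.62 and Psmb10 at 11.73. Array 4 was the highest for Thrsp at 15.38, Scp2 at 15.42 and Otc at 11.44. Array 4 was the lowest for Prkcb at 11.86, Ero1a at 12.84, Cyp1a2 at 12.34, Atf6 at 10.95 and Shmt2 at 14.06. Array 5 was the highest for Uggt1 at 12.96. Array 5 was the lowest for Prcp at 8.88, Dgat2 at 13.33 and Pck1 at 7.88. These are single values in groups that otherwise lay close together. The median signal of array 5 at 300 µM, 413 on the linear scale, was the highest of its group, with the next at 389.

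The difference between the doses itself differed between 48 h and 24 h, by the test in limma, in 26 of 286 named genes. The naming rule took some genes because they passed this test, and others for large differences at 48 h. The count of 26 is thus set in part by the choice of genes. Over all tested probe sets the share was 0.747%. The value at 48 h minus that at 24 h was positive for 10 genes, Rsad2 by 1.39, Tcp11l2 by 0.80, Ddit3 by 0.64, Dnase2b by 0.48, Slc20a1 by 0.70, Abcb1a by 0.74, Cxcl11 by 0.67, Sdf2l1 by 0.58, Sfn by 0.99 and Acmsd by 0.47. It was negative for 16, Acta1 by -1.56, Steap4 by -1.41, Serpina3n by -0.84, Hamp by -1.14, A2m by -0.72, Akr1b8 by -0.93, Fga by -0.61, Igf1 by -0.45, Cryab by -0.47, Lcat by -0.51, Npy by -1.24, Spsb4 by -1.06, Lypd8 by -1.05, Adora2b by -1.04, Ddit4 by -0.60 and Nr3c1 by -0.39. Adjusted p-values ran from 6.11e-07 for Tcp11l2 to 0.0494 for Igf1.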

How the results depend on the processing

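The 5790 calls at 48 h were 4506 to 5971 under other scaling, filters and fits, 4167 at an adjusted p under 0.01, 537 with a 2-fold minimum, and 5244 to 5836 with 1 array left out. The count at 24 h was 3849 to 4060 with 1 array left out. Rises of at least 2-fold were 286 without a filter and 114 with the stricter one, against 176. The 124 probe sets that differed between times were 36 with medians centred, 71 without a filter, 69 with the compared arrays alone, 82 without trend and robust estimation, 43 at an adjusted p under 0.01, 16 with a 2-fold minimum and 71 to 301 with 1 array left out. Of these, 12, 22 and 22 to 74 were higher at 48 h with medians centred, without a filter and with 1 array left out, and 24, 49 and 49 to 227 were lower; 44 and 52 were lower with the compared arrays alone and without trend and robust estimation. The replicate block on the running number gave 5795 calls at 48 h and 121 between times. Deviations from the dose means in wells of the same block had correlations of -0.064 to 0.033, which cannot settle whether wells were paired. Under the block no sign turned, and of the named genes Mthfd2 (limma adjusted p 0.0585) and Slc38a2 (0.0545) lost the call. Of the named genes past the test, 221 kept their direction and call in every setting, 28 lost the call in some and none turned. Signs turned for genes that had not passed. With quantile normalization the sign turned for Hp -0.0450, Cyp3a23-3a1 -0.0476, Epcam 0.0144, Krt8 -0.0161, Rps29 -0.0168, Gc -0.0754, B2m -0.0259 and Gstm1 -0.0142. With array medians centred the sign turned for Epcam 0.0272. With array weights the sign turned for Hp -0.0401, Cyp3a23-3a1 -0.0413, Epcam 0.0163, Krt8 -0.0290, Rps29 -0.0164, Gc -0.0651, B2m -0.0608, Txn1 -0.0149, Apoa1 -0.0261, Ass1 -0.0032, Cyp27a1 -0.0178, Glul -0.0005, Srebf2 -0.0330 and Ttr -0.0083. Without both arrays whose hybridization controls stood apart the sign turned for Hp -0.0657, Cyp3a23-3a1 -0.0886, Epcam 0.0232, Krt8 -0.0640, Rps29 -0.0350, Apoc3 -0.0099, Gc -0.0917, B2m -0.0869, Txn1 -0.0179, Gstm1 -0.0356, Apoa1 -0.0531, Ass1 -0.0310, C1qa 0.0837, Cyp27a1 -0.0363, Srebf2 -0.0678 and Ttr -0.0327. With 1 array left out the sign turned in at least 1 fit for Acta2 (-0.23 to 0.0708), Apoa1 (-0.0531 to 0.0957), Apoc3 (-0.0099 to 0.26), Ass1 (-0.0310 to 0.17), B2m (-0.0869 to 0.13), C1qa (-0.36 to 0.0837), Cyp27a1 (-0.0363 to 0.0667), Cyp3a23-3a1 (-0.0886 to 0.17), Epcam (-0.0150 to 0.0232), Gc (-0.0917 to 0.0408), Glul (-0.0371 to 0.0771), Gstm1 (-0.0356 to 0.20), Hp (-0.0657 to 0.13), Ifit1 (-0.22 to 0.0619), Isg15 (-0.38 to 0.0569), Krt8 (-0.0640 to 0.14), Mx2 (-0.21 to 0.0202), Pck1 (-0.19 to 0.15), Rps29 (-0.0350 to 0.16), Srebf2 (-0.0678 to 0.0814), Ttr (-0.0327 to 0.15) and Txn1 (-0.0179 to 0.0533), each with its range. The cause was not tested. List counts changed by over 1.5 times in 143 of 1848 cases. Dim probe sets limit the precision of large folds.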

Other observations

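Genes of the lysosome were mostly higher at 3000 µM. The 4 lists of this section were put together after the values had been seen, so that their counts are a description with no test. Of 61 lysosomal enzymes and membrane proteins tested, 32 rose (52.5%) and 3 fell (4.92%), with a median of 0.24. Besides Naaa, Prcp and Dnase2b, the glycosidase gene Manba rose by 1.21 (SE 0.0886), the sialidase gene Neu1 by 1.18 and the protease gene Lgmn by 1.05. A dimmer probe set of Lgmn did not pass (-0.031). Ctsl, for cathepsin L and the brightest member, did not pass (0.24, adjusted p 0.0759, and 0.086 without array 4), while its second probe set rose by 0.55. The brighter Ctsl probe set passed with quantile normalization, with medians centred and without array 5 at 3000 µM (limma adjusted p down to 0.00634). The vacuolar ATPase, the proton pump that acidifies lysosomes, had 9 of 16 subunit genes higher (56.2%) and none lower, with a median of 0.26. Atp6v0b (1.03) and Atp6v1c1 (0.63) rose most, followed by Atp6v1h (0.50) and Atp6v1b2 (0.29), and Atp6v1d, the brightest, rose by 0.27.

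In the list of autophagy and lysosomal nutrient sensing, 14 of 44 rose (31.8%) and 7 fell (15.9%). Rragd and Sesn2 led the rises, the folliculin gene Flcn rose by 0.55 and Tfe3, a transcription factor of lysosomal genes, by 0.49. Ulk1, the kinase gene that starts autophagy (-0.82), and the receptor gene Optn (-0.60) fell, though a second probe set of Optn (0.24) did not pass. Sqstm1, the brightest, did not pass (0.18, and 0.038 without array 4), while another of its probe sets rose by 0.57. The brightest Sqstm1 probe set passed with quantile normalization (limma adjusted p 0.00338). Of 33 one-carbon and methyl group genes, 15 fell (45.5%) and 7 rose (21.2%), with a median of -0.15. Bhmt, Ftcd, Gnmt, Gldc, Ahcy (-0.32) and the mitochondrial folate gene Shmt2 (-0.46) fell, while the mitochondrial folate genes Mthfd2 (0.36) and Mthfd1l (0.63) and the folate carrier gene Slc19a1 (1.03) rose. Mthfd2 lost its call in 10 of 21 settings (adjusted p up to 0.151).

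The wells at 3000 µM differed in how far they stood from the lower dose. Over the 215 probe sets at least 2-fold lower with both means at the level, the median difference from the 300 µM mean was -0.95, -1.26, -1.18, -1.37 and -1.52 on arrays 1 to 5. Over the 105 that were at least 2-fold higher it was 1.04, 1.10, 1.16, 1.21 and 1.34. The array numbers follow the running number in the titles, and the labels do not say what that number counts. An effect of its order was not tested.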
